A study of Rattus norvegicus with 16 samples.

Results

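The genes described here encode the enzymes, regulators and receptors by which liver takes up, burns, makes and stores glucose. They were listed by symbol, from glucose phosphorylation to lactate, gluconeogenesis, glycogen, the kinases of pyruvate dehydrogenase, fructose entry, and the glucagon and insulin receptors. Of 45 listed genes, 44 were among the 17055 gene symbols of the count files and 1, Ppp1r3g, is not analysed here. Ppp1r3c, a subunit that targets a phosphatase to glycogen, had 0 reads in all 16 libraries, so 43 genes were tested in each comparison.

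Liver RNA came from 10-week-old male Sprague-Dawley rats kept under anesthesia for 8 h after the abdomen was opened. Septic rats had cecal ligation and puncture, which lets gut bacteria into the abdomen, and in control rats the cecum was only brought out and returned. Isoflurane rats were induced and maintained with isoflurane, a volatile anesthetic, whereas propofol rats were induced with ketamine and xylazine and then maintained with propofol, an intravenous anesthetic given in a lipid emulsion. All rats breathed pure oxygen on a ventilator. Each library pooled 3 rats, and each of the 4 groups had 4 libraries (12 rats), so the spread between libraries is a spread between pools. The septic rats gave libraries 1 to 4 under isoflurane and 9 to 12 under propofol, and the control rats gave libraries 5 to 8 and 13 to 16. The anesthetics also differ in induction drugs and in the run identifiers of their libraries, and these cannot be told apart from the anesthetic itself.

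Glycolysis splits glucose into pyruvate, and gluconeogenesis runs the path back with its own enzymes at the irreversible steps. Liver is unusual in holding both, together with glucose 6-phosphatase, which lets it release glucose to the blood. It stores glucose as glycogen through glycogen synthase and breaks glycogen down with glycogen phosphorylase. Insulin and glucagon set the balance, and many steps have a liver isozyme beside isozymes typical of muscle, brain or blood cells. The mRNA levels below say nothing direct about enzyme activity or flux.

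Levels are given as CPM, read counts relative to library size, after scaling between libraries by edgeR's TMM factors, and log2 fold changes are sepsis over control unless stated, with their standard errors. A gene is said to have risen or fallen where its adjusted p was below 0.05 in edgeR's quasi-likelihood test, with the Benjamini-Hochberg adjustment over every gene of the fit. Libraries held 14199422 to 49937173 reads on genes. The summed hepatocyte markers stood at 99600 to 111000 CPM in isoflurane sepsis and 121000 to 131000 in its control, and at 78300 to 89800 in propofol sepsis and 87600 to 98900 in its control. Alb made up most of each sum, at 69200 to 82700 CPM in isoflurane sepsis and 86300 to 94000 in its control. The other markers moved by unlike amounts. Under isoflurane Hnf4a stood at 266 to 379 CPM in sepsis against 656 to 690, and Asgr1 at 305 to 349 against 354 to 365. Neutrophil and monocyte markers, 9 of 10 of them in the files and none at 0 in any library, summed to 44 to 130 CPM in isoflurane sepsis and 20.5 to 23.6 in its control, and to 46.3 to 63.7 in propofol sepsis and 22.1 to 30.3 in its control. Endothelial markers, 5 of 6 of them in the files, summed to 105 to 117 CPM in isoflurane sepsis against 145 to 180 in its control, and to 141 to 148 in propofol sepsis against 172 to 208. These markers did not move alike. Stab2 and Kdr were lower in every septic library than in any control of the same anesthetic, and Lyve1 was so under isoflurane alone. Pecam1 overlapped under isoflurane, at 14.2 to 17.7 CPM against 14.9 to 17.1, and was higher in propofol sepsis, at 20.9 to 24 against 15 to 18.4. Cdh5 overlapped under both anesthetics. The part of these cell types in the results was not tested. Library 10 of propofol sepsis stood apart, with 403 CPM summed over 12 brain markers where the other 15 libraries held 4.84 to 24.7. For genes and ratios of the list in which library 10 stood apart, values are given with and without it. In whole tissue, fewer cells of a type and less RNA per cell cannot be told apart.

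Sepsis changed glucose genes in both directions under each anesthetic. Under isoflurane 13 of the 43 genes rose, where 25.7% of all 10361 genes tested did, and 11 fell, where 24.4% of all did. Under propofol 12 rose against 20.4% of all 10348 genes, and 11 fell against 21.7%. These shares, 30.2% and 25.6% under isoflurane and 27.9% and 25.6% under propofol, were near those of all genes, so glucose genes as a whole were not set apart by how many moved. The median log2 fold change of the 43 genes was 0.052 under isoflurane and -0.118 under propofol, beside 0.006 and -0.002 over all genes. Of the genes, 9 rose under both anesthetics (Hk1, Hk2, Pfkl, Pfkfb3, Aldoa, Pgam1, Pkm, Ugp2 and Insr), 6 fell under both (Gckr, Pfkfb1, Pc, Gys2, Pdk2 and Gcgr), and 0 rose under one and fell under the other. Another 11 passed the test under neither, among them Gapdh and Ldha.

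**Figure D1:**
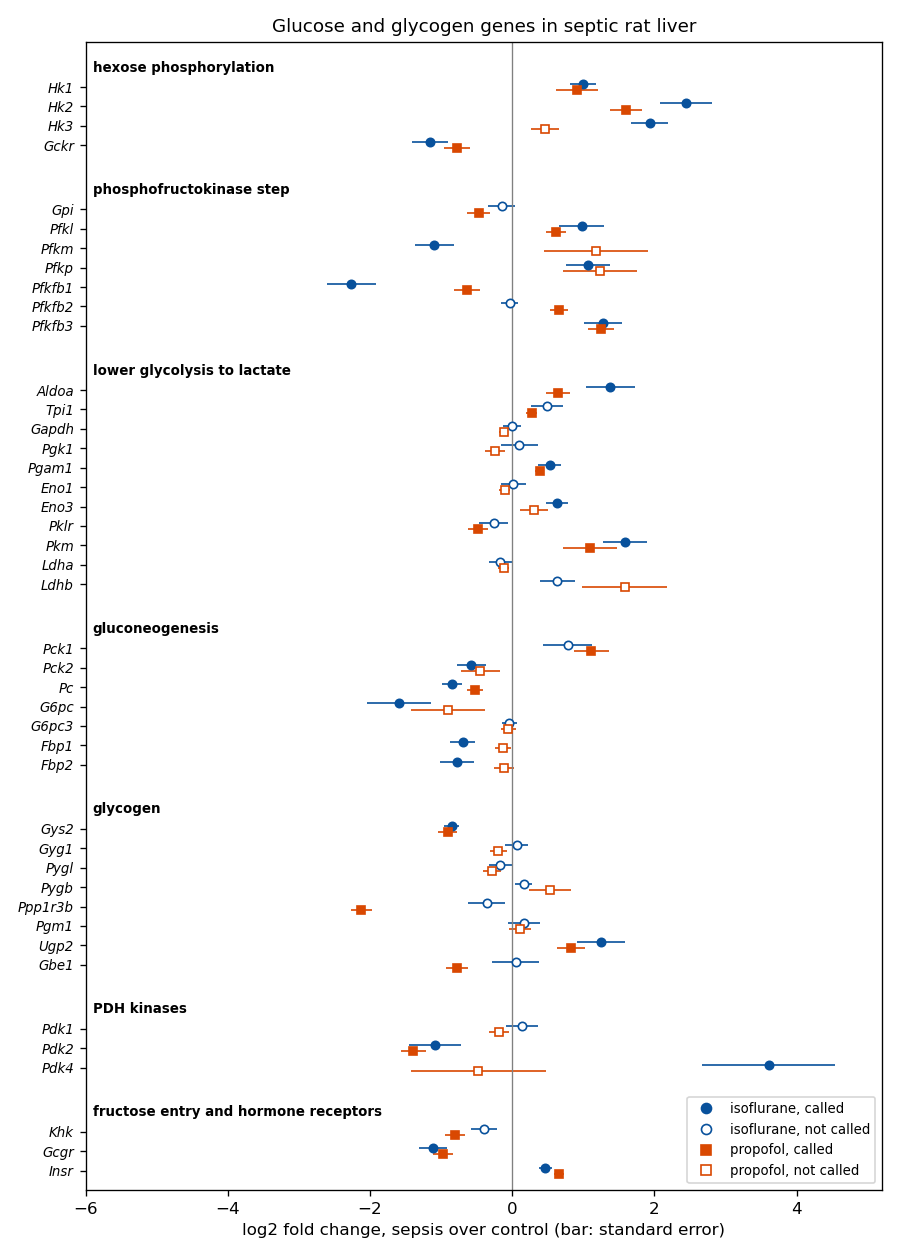
Log2 fold change of sepsis over control (horizontal axis) for each of the 43 tested genes, grouped by role, with circles for isoflurane, squares for propofol, filled symbols for genes that passed the test and bars for the standard error (4 libraries against 4). The hexokinases lie right of 0, most gluconeogenic genes lie left of it, and Pdk4 has the longest error bars.

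Promoter windows are shown for 4 genes whose behaviour in sepsis differed although their windows share a motif. Windows of 300 bases, from 250 before to 50 after each RefSeq start on build GRCr8, were found for 40 of the 44 genes, and not for Pgk1, Pc, Fbp2 and Ppp1r3b. The core letters bound by hypoxia-inducible factors, ACGTG, were searched on both strands. Capitals mark each match, and the run CACGTG, an E-box that clock and carbohydrate-response factors bind, holds 2 overlapping matches. Pfkfb3 and Pgam1 rose under both anesthetics, Pdk2 fell under both, and Ldha passed the test under neither.
Pfkfb3, chr17:71944683-71944982, plus strand: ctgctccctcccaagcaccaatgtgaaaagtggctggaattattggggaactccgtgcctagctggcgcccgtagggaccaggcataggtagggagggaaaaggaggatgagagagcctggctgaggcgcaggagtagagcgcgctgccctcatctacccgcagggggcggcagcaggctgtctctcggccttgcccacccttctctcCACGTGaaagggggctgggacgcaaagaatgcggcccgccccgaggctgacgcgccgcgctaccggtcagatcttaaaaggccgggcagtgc
Pgam1, chr1:250672902-250673201, plus strand: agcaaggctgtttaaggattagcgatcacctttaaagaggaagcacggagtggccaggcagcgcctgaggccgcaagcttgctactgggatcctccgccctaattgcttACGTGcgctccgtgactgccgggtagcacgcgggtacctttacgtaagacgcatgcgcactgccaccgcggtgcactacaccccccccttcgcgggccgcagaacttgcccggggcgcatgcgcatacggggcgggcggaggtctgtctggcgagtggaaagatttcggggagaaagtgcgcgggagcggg
Pdk2, chr10:80483863-80484162, minus strand: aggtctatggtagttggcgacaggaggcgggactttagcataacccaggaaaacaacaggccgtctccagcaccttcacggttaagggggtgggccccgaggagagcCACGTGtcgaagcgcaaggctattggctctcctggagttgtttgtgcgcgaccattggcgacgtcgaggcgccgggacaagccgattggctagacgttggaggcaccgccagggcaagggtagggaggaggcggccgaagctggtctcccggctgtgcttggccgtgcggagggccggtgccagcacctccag
Ldha, chr1:106507842-106508141, plus strand: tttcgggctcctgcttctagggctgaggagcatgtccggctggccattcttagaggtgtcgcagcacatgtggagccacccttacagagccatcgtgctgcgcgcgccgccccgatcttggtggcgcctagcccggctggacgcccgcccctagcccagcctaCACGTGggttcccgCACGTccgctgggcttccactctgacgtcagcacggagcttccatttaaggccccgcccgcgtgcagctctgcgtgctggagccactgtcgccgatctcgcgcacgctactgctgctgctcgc

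The letters ACGTG stood in 16 of the 40 windows (40%) and in 19.3% of all 33469 windows of that length, and CACGTG stood in 6 (15%) against 6.42%. The windows of these genes had a median GC content of 60.7% against 51.7% over all windows, and whether GC content accounts for the motif share was not tested. Among genes that rose under isoflurane, 3 of 13 held ACGTG, namely Hk3, Pfkfb3 and Pgam1. Among those that fell it was 2 of 9, Pfkm and Pdk2, and among those that did not pass the test it was 10 of 17. Under propofol the same counts were 2 of 12, 3 of 9 and 10 of 18. A TATA box, TATAAA, was in 5 of the 40 windows (12.5% against 14.2% of all), including those of Pklr and G6pc, and the STAT letters TTCNNNGAA were in 3 (7.5% against 8.87%). The cAMP response element TGACGTCA was in the Ldha window alone (2.5% against 1.83%), the forkhead letters GTAAACA were in the windows of Pfkfb2 and Insr (5% against 3.78%), and the C/EBP palindrome TTGCGCAA was in 0 (0.17% of all). A match is a run of letters and not a shown binding site.

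Glucose is trapped in the cell by hexokinases. Hk1, Hk2 and Hk3 rose under isoflurane and Gckr fell, and under propofol Hk1 and Hk2 rose and Gckr fell. Hk2, the inducible isozyme that binds mitochondria, stood at 3.54, 6.9, 12.2 and 5.38 CPM in isoflurane libraries 1 to 4 and at 1.46, 1.19, 1.3 and 1.25 in controls 5 to 8. In the propofol groups it stood at 2.82, 3.17, 2.57 and 2.16 CPM in libraries 9 to 12 and at 1.09, 0.641, 1.05 and 0.72 in controls 13 to 16. All septic libraries lay above all controls of the same anesthetic, and library 3 was highest. The log2 fold change of Hk2 was 2.44 ± 0.37 (edgeR adjusted p = 0.000914) under isoflurane and 1.60 ± 0.23 (edgeR adjusted p = 0.000547) under propofol. Its level was low, with 65 reads summed over the 4 propofol controls.

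Hk3, the isozyme typical of white blood cells, stood at 5.04, 6.32, 8.7 and 10.6 CPM in isoflurane sepsis and 2.45, 2.23, 2 and 1.52 in its control. In propofol sepsis it stood at 3.56, 5.02, 3.58 and 3.1 CPM and in propofol control at 3.54, 2.62, 2.52 and 2.35. The isoflurane groups did not overlap and the propofol groups did. Hk3 rose by a log2 fold change of 1.93 ± 0.26 under isoflurane (edgeR adjusted p = 0.000528), and under propofol its value was 0.46 ± 0.20 (edgeR adjusted p = 0.0849). Neutrophil and monocyte markers moved with sepsis in the ranges given above, and their part in the Hk3 values was not tested.

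Hk1, the housekeeping hexokinase that is abundant in brain and blood cells, rose by 1.00 ± 0.18 under isoflurane (edgeR adjusted p = 0.00209) and by 0.92 ± 0.29 under propofol (edgeR adjusted p = 0.0309). Without library 10, its level being 16.9 CPM there against 6.39 to 7.91 in the other septic propofol libraries, the propofol value was 0.49 ± 0.12 (edgeR adjusted p = 0.0108). The propofol call was lost when any single control library, 13 to 16, was left out and with limma-voom. Gckr encodes a nuclear protein that regulates glucose phosphorylation in liver. It stood at 34.6, 48.9, 51.4 and 20.7 CPM in isoflurane sepsis against 85.4, 76.2, 90.1 and 97.1 in control, and at 86.8, 52.4, 64.7 and 81 in propofol sepsis against 119, 143, 89.7 and 135. Each septic library lay below each control of its anesthetic. The log2 fold changes were -1.16 ± 0.25 (edgeR adjusted p = 0.00521) and -0.78 ± 0.18 (edgeR adjusted p = 0.007).

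**Figure D2:**
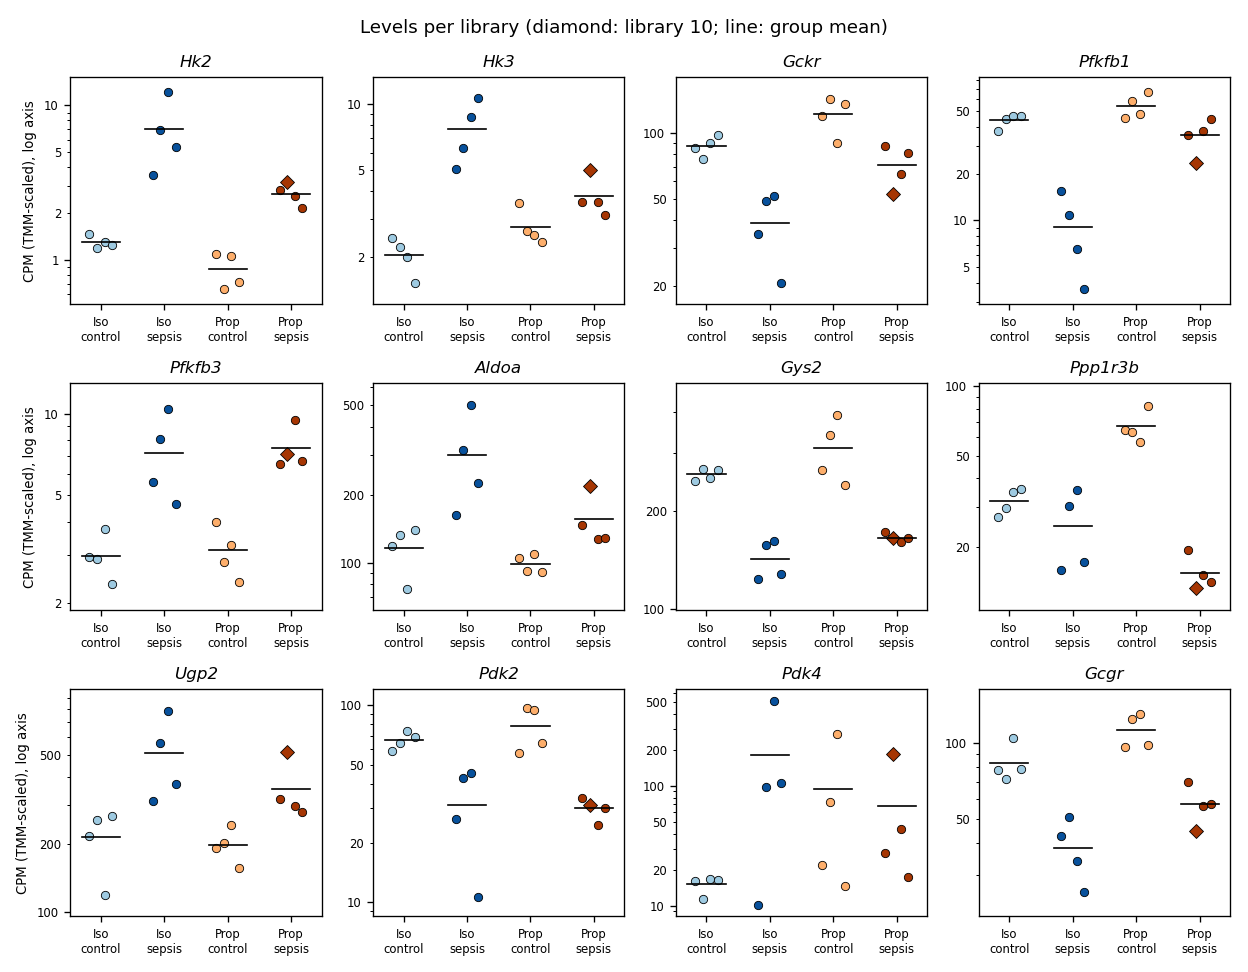
CPM on a log axis in each library for 12 genes, by group, with a line at the group mean (n = 4 libraries) and a diamond for library 10. Hk2 and Pfkfb3 are higher and Gckr, Gys2, Pdk2 and Gcgr lower in every septic library than in any control of the same anesthetic, and Pdk4 ranges from 10.2 to 512 CPM within isoflurane sepsis.

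Phosphofructokinase commits glucose to glycolysis, and fructose 2,6-bisphosphate, made and broken down by the PFKFB enzymes, drives it. Under both anesthetics Pfkfb1 fell and Pfkfb3 rose. Pfkfb1, the liver form that glucagon switches toward breaking down the activator, stood at 15.4, 10.8, 6.58 and 3.62 CPM in isoflurane sepsis and 37.3, 44.6, 46.8 and 46.5 in control. With propofol it stood at 35.2, 23.5, 37.2 and 44.6 CPM in sepsis and 45.5, 58.5, 47.9 and 66.3 in control. Septic levels were below every control of the same anesthetic, far below under isoflurane and only just under propofol. Pfkfb1 fell by 2.26 ± 0.35 on the log2 scale under isoflurane (edgeR adjusted p = 0.000978) and by 0.64 ± 0.19 under propofol (edgeR adjusted p = 0.0207), where the call was lost without library 14 or 16 and in the fit of all 16 libraries.

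Pfkfb3, the inducible form that mostly makes the activator, stood at 5.59, 8.06, 10.4 and 4.65 CPM in isoflurane sepsis and 2.96, 2.92, 3.76 and 2.35 in control. Under propofol it was at 6.55, 7.12, 9.51 and 6.72 CPM in sepsis and 3.99, 2.85, 3.29 and 2.4 in control. Neither pair of groups overlapped. The rise was 1.28 ± 0.27 (edgeR adjusted p = 0.00453) under isoflurane and 1.25 ± 0.18 (edgeR adjusted p = 0.000617) under propofol, and the test of the difference between them gave 0.01 ± 0.33 (edgeR adjusted p = 0.985). Pfkfb2, a form common in heart, rose under propofol by 0.655 ± 0.128 (edgeR adjusted p = 0.00293) and stood at -0.04 ± 0.12 under isoflurane. For Pfkfb2 the test of the difference, isoflurane minus propofol, gave -0.70 ± 0.19 (edgeR adjusted p = 0.0584). That difference passed with DESeq2 (adjusted p = 0.0132) and with limma-voom (adjusted p = 0.0498). It also passed without library 1 or 13 (edgeR adjusted p = 0.00675 and 0.044).

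Among the phosphofructokinase subunits, Pfkl of liver rose by 0.98 ± 0.315 under isoflurane (edgeR adjusted p = 0.0289) and by 0.62 ± 0.14 under propofol (edgeR adjusted p = 0.00598). Its isoflurane groups overlapped, at 41.6 to 142 CPM in sepsis and 39.5 to 50.5 in control, and that call was lost without any one of libraries 2, 3, 5, 6, 7 and 8 and with limma-voom, while without library 3 the value was 0.64. The propofol call of Pfkl was lost in the fit of all 16 libraries. Pfkm, the muscle subunit, stood at 0.449, 1.1, 1.24 and 0.846 CPM in isoflurane sepsis and 2.12, 1.88, 2 and 1.81 in control, and fell by 1.10 ± 0.27 on the log2 scale (edgeR adjusted p = 0.00947). This rests on 64 reads over the septic group, and the call was lost in the fit of all 16 libraries (edgeR adjusted p = 0.176). Under propofol Pfkm was at 2.37, 13.6, 1.02 and 1.67 CPM in sepsis and 2.32, 2.56, 1.62 and 1.73 in control. Its log2 fold change there was 1.18 ± 0.725 with library 10 and -0.27 ± 0.28 without it, and neither passed the test.

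Pfkp, the platelet subunit also found in brain, stood at 2.74, 2.51, 5.34 and 3.5 CPM in isoflurane sepsis and 1.93, 2.23, 0.976 and 1.69 in control, a rise of 1.06 ± 0.31 (edgeR adjusted p = 0.0185) that was lost in the fit of all 16 libraries. In propofol sepsis it was at 2.43, 10.4, 2.99 and 1.79 CPM, in propofol control at 1.74, 1.4, 2.05 and 2.21, and its log2 fold change was 1.23 ± 0.52 with library 10 and 0.33 ± 0.22 without it. The high propofol value is that of library 10 alone. Gpi, which turns glucose 6-phosphate into fructose 6-phosphate, fell by 0.47 ± 0.16 under propofol (edgeR adjusted p = 0.0419), with overlapping groups and a call lost without library 9, 11, 12, 14 or 15, with limma-voom, with thinned counts and in the fit of all 16 libraries, and stood at -0.15 ± 0.195 under isoflurane.

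Below phosphofructokinase, some genes passed the test and others did not. Of 11 genes from aldolase to lactate dehydrogenase, 4 rose and 0 fell under isoflurane, where 25.7% and 24.4% of all genes did, and 4 rose and 1 fell under propofol, where 20.4% and 21.7% did. Gapdh, Pgk1, Eno1, Ldha and Ldhb passed the test under neither anesthetic in the main fit. Under isoflurane Ldhb passed with DESeq2 (adjusted p = 0.0354), and Tpi1 passed in the fit of all 16 libraries (edgeR adjusted p = 0.0274). Several of these genes have processed pseudogenes in the genome, and how the authors' counting shared such reads is not given in the sources used here.

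Aldoa, the muscle-type aldolase that many tissues use, stood at 162, 316, 498 and 225 CPM in isoflurane sepsis and 118, 132, 76.7 and 139 in control. The propofol libraries stood at 146, 219, 127 and 129 CPM in sepsis and 105, 91.3, 109 and 90.7 in control. The lowest septic library lay above the highest control each time. Aldoa rose by 1.38 ± 0.34 (edgeR adjusted p = 0.00906) and 0.64 ± 0.17 (edgeR adjusted p = 0.0118), and the second call was lost in the fit of all 16 libraries.

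Pgam1, which moves the phosphate group on phosphoglycerate, stood at 306, 377, 425 and 248 CPM in isoflurane sepsis and 241, 247, 212 and 243 in control. In propofol sepsis it stood at 257, 291, 246 and 256 CPM and in control at 201, 197, 199 and 203. The propofol controls lay within a few CPM of each other, and no groups overlapped. The rise was 0.53 ± 0.16 under isoflurane (edgeR adjusted p = 0.0225), lost without library 2, 5, 7 or 8, and 0.39 ± 0.06 under propofol (edgeR adjusted p = 0.00127). Tpi1, which interconverts the triose phosphates, rose under propofol by 0.27 ± 0.08 (edgeR adjusted p = 0.0221), a call lost without library 15, with library totals alone and in the fit of all 16 libraries, and stood at 0.49 ± 0.225 under isoflurane. Eno3, the muscle enolase, rose under isoflurane by 0.63 ± 0.15 (edgeR adjusted p = 0.00838) and stood at 0.31 ± 0.20 under propofol.

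Pyruvate kinase closes glycolysis, with Pklr coding for the liver form and Pkm for the form of most other tissues and of white blood cells. Pkm stood at 5.39, 8.89, 16.1 and 13.2 CPM in isoflurane sepsis and 4.37, 3.56, 3.07 and 3.58 in control. Under propofol it stood at 7.4, 19.5, 6.36 and 5.11 CPM in sepsis and 4.18, 4.43, 4.71 and 4.46 in control. Library 10 held the highest value of all 16. Pkm rose by 1.59 ± 0.31 under isoflurane (edgeR adjusted p = 0.00335) and by 1.09 ± 0.385 under propofol (edgeR adjusted p = 0.0439). The propofol value was 0.48 ± 0.14 without library 10 (edgeR adjusted p = 0.0219), and the call was lost without library 9, 13, 14, 15 or 16, with library totals alone, without a filter on low counts and with limma-voom. The part of white blood cells and of brain RNA in these values was not tested. Pklr fell by 0.49 ± 0.14 under propofol (edgeR adjusted p = 0.0202), with overlapping groups and a call lost without library 14 and in the fit of all 16 libraries, and stood at -0.26 ± 0.20 under isoflurane.

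Ldha, the lactate dehydrogenase subunit of liver and muscle, stood at 355 to 622 CPM in isoflurane sepsis and 531 to 572 in its control, with a log2 fold change of -0.17 ± 0.16 (edgeR adjusted p = 0.403). In the propofol groups it stood at -0.12 ± 0.08 (edgeR adjusted p = 0.26). Ldhb, the subunit of heart and brain, was at 15.2 CPM in library 10 and at 2.03 to 3.39 in the other septic propofol libraries, and its log2 fold change there was 1.58 ± 0.60 with library 10 and 0.515 ± 0.219 without it. Under isoflurane Ldhb stood at 0.63 ± 0.245 (edgeR adjusted p = 0.0568). Gapdh gave values of -0.003 ± 0.131 and -0.12 ± 0.07, Pgk1 of 0.10 ± 0.27 and -0.24 ± 0.14, and Eno1 of 0.02 ± 0.18 and -0.11 ± 0.08, isoflurane first.

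**Figure D3:**
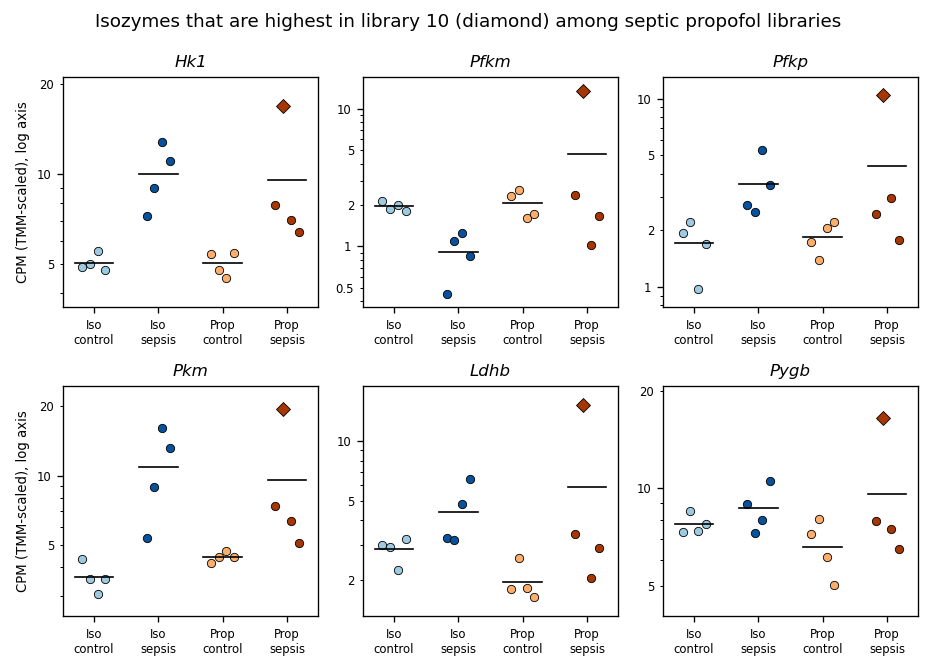
CPM on a log axis in each library for 6 isozymes that are typical of tissues other than liver, by group, with a line at the group mean (n = 4 libraries). The 6 were picked because the diamond, library 10, is the highest of their propofol sepsis libraries, so this pattern follows from the choice. For Pfkm it lies at 13.6 CPM where the others lie between 1.02 and 2.37. Among genes not drawn here, library 10 was also highest in that group for Pfkl (76.6 CPM) and Ldha (515 CPM). It was lowest for the muscle form Fbp2 (9.46 CPM) and for Pklr (282 CPM).

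Gluconeogenesis carries pyruvate back to glucose. Under isoflurane 5 of its 7 genes fell and 0 rose, with a median log2 fold change of -0.698 beside 0.006 over all genes, of which 24.4% fell and 25.7% rose. Under propofol 1 fell and 1 rose, where 21.7% and 20.4% of all genes did, with a median of -0.13 beside -0.002. Pc, pyruvate carboxylase, which feeds the first step, stood at 129, 128, 109 and 80.1 CPM in isoflurane sepsis and 196, 198, 203 and 212 in control. With propofol it stood at 235, 208, 197 and 217 CPM in sepsis and 265, 381, 304 and 279 in control. Septic and control libraries were apart under both anesthetics. Pc fell by 0.85 ± 0.14 on the log2 scale (edgeR adjusted p = 0.00137) and by 0.53 ± 0.11 (edgeR adjusted p = 0.00504).

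G6pc encodes glucose 6-phosphatase, the last step before glucose leaves the cell. It stood at 13.1, 27.6, 47.2 and 74 CPM in isoflurane sepsis and 123, 83.4, 151 and 130 in control. In propofol sepsis it stood at 34.2, 12.4, 9.03 and 8.12 CPM and in control at 12.9, 51.5, 32.1 and 20.8. The isoflurane groups were apart and the propofol groups overlapped, with library 9 high among the septic ones. G6pc fell by 1.59 ± 0.45 on the log2 scale under isoflurane (edgeR adjusted p = 0.0167). Under propofol the value was -0.91 ± 0.518 (edgeR adjusted p = 0.183), and without library 9 it was -1.59 (edgeR adjusted p = 0.0178). G6pc3, the ubiquitous phosphatase, lay between 4.32 and 5.75 CPM in every library and passed no test.

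Pck1, the cytosolic PEP carboxykinase and a classic target of glucagon, glucocorticoids and fasting, was the gluconeogenic gene that rose under propofol. It stood at 1790, 1610, 3640 and 5230 CPM in isoflurane sepsis and 1830, 1700, 1690 and 1940 in control. The propofol libraries stood at 1450, 2070, 1200 and 992 CPM in sepsis and 543, 575, 962 and 561 in control. Only libraries 3 and 4 exceeded the isoflurane controls, while every septic propofol library exceeded every propofol control. The log2 fold change was 0.78 ± 0.34 under isoflurane (edgeR adjusted p = 0.0851) and 1.11 ± 0.25 under propofol (edgeR adjusted p = 0.00558). The isoflurane value passed the test without library 1 or library 2 (0.97 and 0.99, edgeR adjusted p = 0.0302 and 0.0283) and with DESeq2 (adjusted p = 0.0409).

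Fbp1, the liver fructose 1,6-bisphosphatase that opposes phosphofructokinase, fell under isoflurane by 0.70 ± 0.17 on the log2 scale (edgeR adjusted p = 0.00922), from 642 ± 21.8 to 395 ± 104 CPM (SD, n = 4). Under propofol its value was -0.13 ± 0.11 (edgeR adjusted p = 0.367). Fbp2, the muscle form, fell under isoflurane by 0.78 ± 0.235 (edgeR adjusted p = 0.0222), a call lost without library 7 or 8, and stood at -0.12 ± 0.14 under propofol. Pck2, the mitochondrial PEP carboxykinase, fell under isoflurane by 0.58 ± 0.20 (edgeR adjusted p = 0.0395), but the call was lost without any one of libraries 3 to 8, with thinned counts and in the fit of all 16 libraries.

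**Figure D4:**
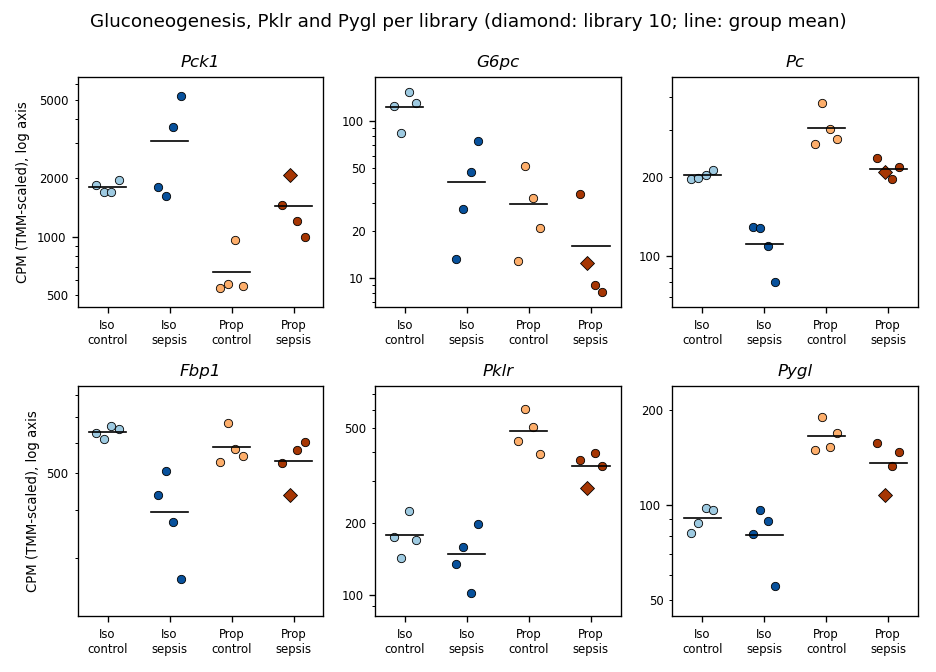
CPM on a log axis in each library for 4 gluconeogenic genes, the liver pyruvate kinase gene Pklr and the liver phosphorylase gene Pygl, by group, with a line at the group mean (n = 4 libraries) and a diamond for library 10. Pck1 and G6pc are higher, and Pklr and Pygl lower, in all 4 isoflurane controls than in all 4 propofol controls.

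Glycogen is built on glycogenin by glycogen synthase and the branching enzyme from UDP-glucose. Of 8 tested glycogen genes 1 rose and 1 fell under isoflurane, where 25.7% and 24.4% of all genes did, and 1 rose and 3 fell under propofol, where 20.4% and 21.7% did. Gys2, the liver glycogen synthase, stood at 124, 157, 162 and 128 CPM in isoflurane sepsis and 247, 268, 252 and 267 in control. Under propofol it stood at 172, 165, 160 and 165 CPM in sepsis and 266, 341, 392 and 240 in control. Septic levels were tight and low with both anesthetics. Gys2 fell by 0.85 ± 0.11 on the log2 scale (edgeR adjusted p = 4e-04) and by 0.91 ± 0.14 (edgeR adjusted p = 0.00071), and the difference between these was 0.05 ± 0.18 (edgeR adjusted p = 0.891).

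Ppp1r3b encodes the liver subunit that brings protein phosphatase 1 to glycogen, where it activates glycogen synthase. It stood at 16, 30.2, 35.5 and 17.2 CPM in isoflurane sepsis and 27.2, 29.7, 34.8 and 35.9 in control. In the propofol groups it stood at 19.5, 13.3, 15.2 and 14.1 CPM in sepsis and 64.6, 63.5, 57.3 and 82.5 in control. The isoflurane groups overlapped, with libraries 1 and 4 low and 2 and 3 at the level of the controls, whereas the propofol groups were far apart. Ppp1r3b fell by 2.12 ± 0.145 on the log2 scale under propofol (edgeR adjusted p = 1.7e-05) and stood at -0.36 ± 0.26 under isoflurane (edgeR adjusted p = 0.269).

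Ugp2, which makes UDP-glucose for glycogen and for glucuronidation, stood at 313, 563, 787 and 373 CPM in isoflurane sepsis and 217, 257, 119 and 268 in control. With propofol it stood at 318, 517, 297 and 279 CPM in sepsis and 192, 202, 244 and 156 in control. All septic values exceeded the controls of their anesthetic, with libraries 3 and 10 highest in their groups. Ugp2 rose by 1.25 ± 0.34 (edgeR adjusted p = 0.0136) and 0.825 ± 0.201 (edgeR adjusted p = 0.00902), and without library 10 the propofol value was 0.588 ± 0.124 (edgeR adjusted p = 0.00451). Gbe1, the branching enzyme, fell under propofol by 0.78 ± 0.15 (edgeR adjusted p = 0.0028) and stood at 0.05 ± 0.33 under isoflurane. Pygl, the liver phosphorylase, passed the test under neither anesthetic, at -0.17 ± 0.16 and -0.28 ± 0.12. Pygb, the brain phosphorylase, was at 0.16 ± 0.12 under isoflurane and at 0.53 ± 0.29 under propofol, or 0.14 ± 0.16 without library 10. Gyg1, glycogenin, and Pgm1, phosphoglucomutase, had values between -0.19 and 0.16.

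The pyruvate dehydrogenase kinases shut the entry of pyruvate into the citric acid cycle. Pdk2, a form abundant in liver, stood at 26.4, 42.6, 45.1 and 10.6 CPM in isoflurane sepsis and 58.5, 64.6, 73.7 and 68.9 in control. The propofol libraries stood at 34, 31.2, 24.6 and 30.2 CPM in sepsis and 57.5, 96.5, 94.6 and 64.3 in control. Each septic library was below each control of its anesthetic. Pdk2 fell by 1.08 ± 0.37 on the log2 scale under isoflurane (edgeR adjusted p = 0.0346), a call lost without library 1, 5, 6, 7 or 8, and by 1.39 ± 0.18 under propofol (edgeR adjusted p = 0.000305).

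Pdk4, the form induced by fasting, fatty acids and glucocorticoids, differed widely between libraries of the same group. It stood at 10.2, 98.5, 512 and 106 CPM in isoflurane sepsis and 16.2, 11.4, 16.7 and 16.3 in control. In propofol sepsis it stood at 27.8, 185, 43.9 and 17.5 CPM and in control at 21.7, 73.9, 270 and 14.7. Library 1 lay below every isoflurane control although the other 3 septic libraries lay far above, and the propofol groups overlapped throughout. The log2 fold change under isoflurane was 3.605 ± 0.934 (edgeR adjusted p = 0.0116), or 2.23 without library 3 (edgeR adjusted p = 0.0202), and it did not pass with limma-voom (adjusted p = 0.0706). Under propofol the value was -0.48 ± 0.95 (edgeR adjusted p = 0.71), or -1.69 ± 0.877 without library 10. Pdk1, a target of hypoxia-inducible factor, stood at 0.14 ± 0.23 and -0.19 ± 0.14.

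Both hormone receptors moved, in opposite directions. Gcgr, the glucagon receptor, stood at 42.6, 51, 34.1 and 25.7 CPM in isoflurane sepsis and 78.2, 72, 104 and 78.7 in control. Under propofol it stood at 69.9, 44.9, 56.2 and 57.3 CPM in sepsis and 96.3, 124, 130 and 97.6 in control. It fell by 1.11 ± 0.20 on the log2 scale (edgeR adjusted p = 0.00215) and by 0.98 ± 0.14 (edgeR adjusted p = 0.000617), with no overlap. Insr, the insulin receptor, stood at 112, 109, 119 and 132 CPM in isoflurane sepsis and 81.2, 82, 96.1 and 82.6 in control. In propofol sepsis it stood at 104, 117, 109 and 97.2 CPM and in control at 63.6, 64.7, 71.5 and 69.9. Insr rose by 0.47 ± 0.09 (edgeR adjusted p = 0.00293) and 0.66 ± 0.07 (edgeR adjusted p = 0.000158), again with no overlap. Khk, the kinase that takes in fructose, fell under propofol by 0.81 ± 0.14 (edgeR adjusted p = 0.00147) and stood at -0.40 ± 0.185 under isoflurane (edgeR adjusted p = 0.101).

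The anesthetics already differed in control liver. With isoflurane over propofol, 10 of the 43 genes were higher, where 21.6% of all 10314 genes tested were, and 11 were lower, where 21.7% of all were. Scaling by library totals alone made these 4 and 20, because it shifted the median of all genes to -0.146, and under it 11% of all genes were higher and 37.1% lower. Of the 21 calls, 9 held under every alternative other than the stricter threshold. Among them Pck1 was higher by 1.44 ± 0.16 on the log2 scale (edgeR adjusted p = 7.89e-05) and G6pc by 2.06 ± 0.34 (edgeR adjusted p = 0.000743). Insr was higher by 0.34 ± 0.07 and Pfkfb2 by 0.455 ± 0.108.

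On the other side, Pklr was lower by 1.44 ± 0.15 on the log2 scale in isoflurane control (edgeR adjusted p = 5.04e-05), at 178 ± 34.5 against 486 ± 90.5 CPM (SD, n = 4). Pygl was lower by 0.87 ± 0.09 (edgeR adjusted p = 4.04e-05), Ppp1r3b by 1.07 ± 0.12 (edgeR adjusted p = 7.84e-05), Pck2 by 0.92 ± 0.22 (edgeR adjusted p = 0.00727) and Pc by 0.60 ± 0.10 (edgeR adjusted p = 0.000706). Pdk4 was lower by 2.65 ± 0.76 (edgeR adjusted p = 0.0164), or 1.27 without library 15, and not with limma-voom or in the fit of all 16 libraries. For these genes the fold changes in sepsis are therefore relative to control levels that differ between the anesthetics.

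Septic liver was compared between the anesthetics in the same way. Of the 43, 2 were higher under isoflurane, where 10.6% of all 10272 genes were, and 5 were lower, where 8.66% of all were. With library totals alone the counts were 2 and 8, with the median of all genes at -0.156 and 5.78% of all genes higher and 21.2% lower, and without library 10 they were 3 and 6. Whether more of the 43 genes differed in control or in septic liver turned with the fit, since the fit of all 16 libraries gave 4 higher and 5 lower in control liver and 6 and 10 in septic liver. Hk2 was higher by 1.39 ± 0.35 on the log2 scale (edgeR adjusted p = 0.0294) and Hk3 by 1.005 ± 0.255 (edgeR adjusted p = 0.0297). Pfkfb1 was lower by 1.95 ± 0.39 (edgeR adjusted p = 0.0167), Pklr by 1.23 ± 0.20 (edgeR adjusted p = 0.0108), Pck2 by 1.06 ± 0.26 (edgeR adjusted p = 0.0281), Pc by 0.94 ± 0.15 (edgeR adjusted p = 0.0105) and Pygl by 0.77 ± 0.18 (edgeR adjusted p = 0.0244). The calls of Pklr and Pc held with any library left out. Those of the other 5 genes were lost without library 9, 11 or 12, and also without library 2 or 3 for Hk2 and without library 3 or 4 for Hk3 and Pck2.

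The response to sepsis itself was compared between the anesthetics by an interaction, isoflurane minus propofol, in 1 fit of all 16 libraries. Of the 43 genes 2 had a higher response under isoflurane, where 1.66% of all 10621 genes did, and 1 had a lower one, where 1.06% of all did. Ppp1r3b gave 1.74 ± 0.31 on the log2 scale (edgeR adjusted p = 0.0143). Under propofol its mean went from 67 ± 10.8 to 15.5 ± 2.79 CPM, and under isoflurane from 31.9 ± 4.15 to 24.7 ± 9.65 (SD, n = 4). This call held under all alternatives other than the stricter threshold. Hk3 gave 1.45 ± 0.335 (edgeR adjusted p = 0.038) and Pfkfb1 -1.63 ± 0.41 (edgeR adjusted p = 0.0473). Both were lost when single libraries were left out, Hk3 without any one of libraries 3, 5 to 9 and 11 to 15, and Pfkfb1 without any one of libraries 2, 3, 5 to 9 and 11 to 16 and without a filter on low counts. Pdk4 gave 4.05 ± 1.45 (edgeR adjusted p = 0.118), or 4.45 without library 1 (edgeR adjusted p = 0.034). Without library 10 the Pdk4 value was 5.27 ± 1.45 (edgeR adjusted p = 0.0542). G6pc gave -0.695 ± 0.739 (edgeR adjusted p = 0.577), and Fbp1 -0.58 ± 0.22 (edgeR adjusted p = 0.13), so for these genes a call under 1 anesthetic and none under the other is not a shown difference.

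Ratios of 2 genes within a library do not depend on the scaling between libraries, and they are given here with no test. The ratio of Pklr to Pkm, liver over non-liver pyruvate kinase, went from a mean log2 of 5.60 in control to 3.84 in sepsis under isoflurane and from 6.76 to 5.38 under propofol, with no overlap in either. Library 10 was at 3.86, and without it the septic propofol mean was 5.89 and the difference from control -0.86 instead of -1.37. Such values without a library were added after seeing the data. The ratio of Fbp1 to Pfkl, opposing enzymes of 1 step, went from 3.83 to 2.25 under isoflurane and from 3.94 to 3.21 under propofol, or to 3.44 without library 10, without overlap. G6pc over Hk1 went from 4.56 to 1.77 under isoflurane without overlap, and from 2.36 to 0.59 under propofol, or to 0.94 without library 10, with overlap. Pck1 over Pklr differed most between the controls, at 3.35 under isoflurane and 0.42 under propofol, and stood at 1.99 in propofol sepsis, or 1.70 without library 10, with no overlap with its control. Gys2 over Pygl went from 1.52 to 0.84 under isoflurane without overlap and from 0.88 to 0.29 under propofol with overlap. Without library 10, at 0.61, its septic propofol mean was 0.19 and the propofol groups did not overlap.

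**Figure D5:**
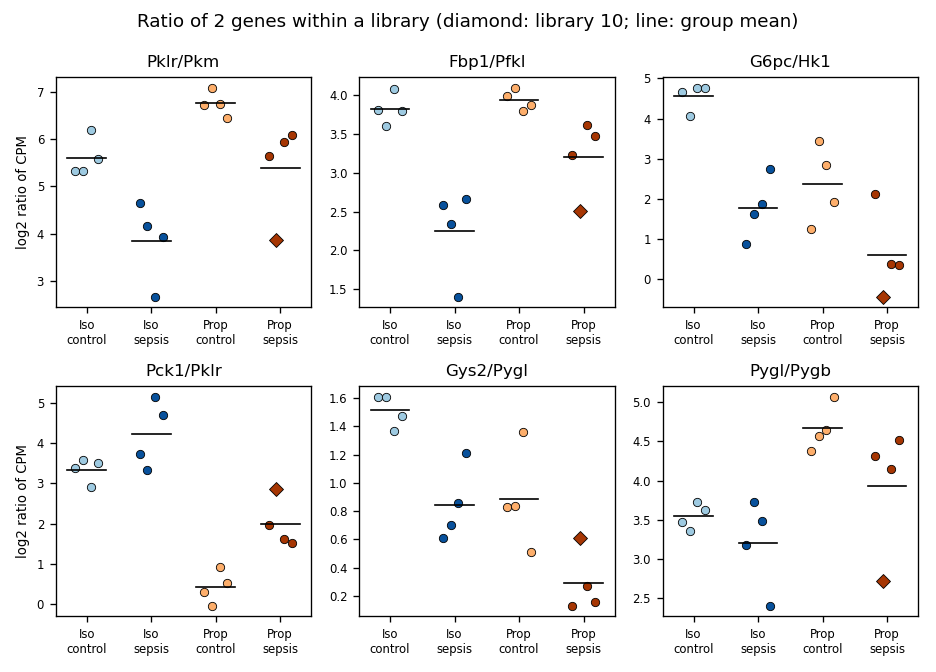
Log2 ratio of the CPM of 2 genes in each library, by group, with a line at the group mean (n = 4 libraries) and a diamond for library 10. Pklr/Pkm and Fbp1/Pfkl are lower in every septic library than in any control of the same anesthetic, and Pck1/Pklr is higher in every isoflurane control than in any propofol control.

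Other genes of the same pathways, from a list of related genes of which 65 were tested in the sepsis comparisons, gave 17 that rose and 24 that fell under isoflurane, and 12 and 23 under propofol. These are 26.2% and 36.9% beside 25.7% and 24.4% of all genes under isoflurane, and 18.5% and 35.4% beside 20.4% and 21.7% under propofol. Of 10 glucose and lactate transporters 2 rose and 5 fell under each anesthetic, 20% and 50%, to be read beside the same shares of all genes. Slc2a1, the GLUT1 transporter, and Slc16a3, the lactate exporter MCT4, rose by 3.67 ± 0.71 and 3.78 ± 0.66 under isoflurane (edgeR adjusted p = 0.00301 and 0.0018) and by 2.29 ± 0.315 and 1.86 ± 0.37 under propofol (edgeR adjusted p = 0.000443 and 0.00337). Slc37a4, which carries glucose 6-phosphate to G6pc, moved by -1.06 ± 0.26 and -1.06 ± 0.16 (edgeR adjusted p = 0.00963 and 0.000789). Slc2a2, the liver GLUT2, stood at -0.92 ± 0.43 under isoflurane (edgeR adjusted p = 0.101) and fell by 2.15 ± 0.25 on the log2 scale under propofol (edgeR adjusted p = 0.000219). Aldoc, the brain aldolase, passed the test under propofol at 4.05 ± 1.38 (edgeR adjusted p = 0.0395). It stood at 0.193 to 0.932 CPM in controls, at 33.9 in library 10 and at 0.699 to 1.52 in the other septic libraries. The high value is that of library 10 alone, and the other septic libraries overlapped the controls.

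Among 17 tested regulators of glucose output, 7 rose and 3 fell under isoflurane (41.2% and 17.6%, beside 25.7% and 24.4% of all genes), and 4 rose and 5 fell under propofol (23.5% and 29.4%, beside 20.4% and 21.7%). Irs2, an insulin receptor substrate, rose by 1.59 ± 0.24 and 1.90 ± 0.28 (edgeR adjusted p = 0.000844 and 0.000677), and Igfbp1, a secreted protein that insulin represses, by 2.24 ± 0.33 and 2.71 ± 0.46 (edgeR adjusted p = 0.000801 and 0.00144). Adra1b, the liver receptor by which adrenaline starts glycogen breakdown, moved by -2.20 ± 0.18 and -2.28 ± 0.23 (edgeR adjusted p = 7.08e-05 and 0.000108). Genes of these lists that also had a called log2 fold change above 1 or below -1 in either sepsis comparison included Slc2a5, Slc2a9, Galm, Gpd1, Pdp1, Phka2, Nhlrc1, Stbd1, Foxo3, Ppargc1b, Creb3l3, Sik1, Irs1, Trib3 and Pik3r1. In the interaction 4 of the 65 related genes tested were called (6.15%), Gpd2, Stbd1, Sik1 and Trib3. Of all 10621 genes, 1.66% had a higher response under isoflurane and 1.06% a lower one. All 4 related genes had a higher response to sepsis under isoflurane, which is not a statement about their levels.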

How the data were processed

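Poly(A) RNA from rat liver was made into stranded libraries and sequenced from 1 end, and each of the 16 libraries pooled 3 rats. The deposited files hold whole-number counts of reads per gene, as the authors made them before any normalization. The submitters' processing notes name STAR and the build rn5, while for the counting program and annotation the sources used here give nothing. In each file 2 rows named no gene: 21.6% to 25.4% of reads fell on no feature and 1.07% to 1.35% were ambiguous, and these were left out. Libraries held 14199422 to 49937173 reads on genes, and their number limits the precision of genes with low counts.

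Groups were taken from the labels. Each comparison of 4 against 4 libraries was fitted alone, and the interaction over all 16, with edgeR 4.0.16 in R 4.3.3 (TMM scaling, quasi-likelihood test, minimum count 10 and minimum total 15). Two-sided p-values had the Benjamini-Hochberg adjustment over every gene tested, with a threshold of 0.05. The standard error is the log2 fold change over the square root of its F statistic. CPM values use TMM factors over all 16 libraries. The code was tested on simulated data. DESeq2 1.42.0, limma-voom (limma 3.58.1) and other settings were tried as alternatives, and ratios with each library left out were added after seeing the data.

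The genes and lists were chosen with earlier results of these data known, and no test was made over a list. Library values are given for genes called in a sepsis comparison and beyond 1 or -1 on the log2 scale, for the gene with the smallest adjusted p of each role in each sepsis comparison, and for genes called in the interaction. Values of other genes were picked to account for each role. Promoter windows and their positions are from RefSeq on GRCr8, with the first entry used where a gene had several, and no coordinates of the authors' build were used. The 4 printed windows were chosen after the values were seen. Some genes of the wider lists are counted but not reported here by name.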

Additional observations from a re-analysis of the deposited data

Results flagged for a closer look

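Within groups of 4 libraries, Dixon's test at 95% marked 14 of 172 pairs of gene and group as having a library far from the other 3, where chance marks about 1 in 20. Library 10 of propofol sepsis gave 8 of the 14, each as the highest value: 16.9 CPM for Hk1, 13.6 for Pfkm, 10.4 for Pfkp, 19.5 for Pkm, 15.2 for Ldhb, 16.5 for Pygb, 517 for Ugp2 (the other 3 libraries at 279 to 318) and 185 for Pdk4 (the others at 17.5 to 43.9). The same library held 403 CPM over 12 brain marker genes, which no comparison of the report uses, where the other 15 libraries held 4.84 to 24.7. The part of brain RNA in the 8 values was not tested.

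In isoflurane control, library 7 was lowest for Pgam1 at 212 CPM (the others at 241 to 247) and highest for Insr at 96.1 CPM, and library 6 was lowest for Pdk4 at 11.4 CPM. In propofol control, library 15 was highest for Pck1 at 962 CPM (the others at 543 to 575) and library 14 for Fbp2 at 15.8 CPM. In propofol sepsis, library 9 was highest for G6pc at 34.2 CPM.

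For 3 genes the response to sepsis differed between the anesthetics in the test of the interaction, at 1.74 on the log2 scale for Ppp1r3b, 1.45 for Hk3 and -1.63 for Pfkfb1, isoflurane minus propofol.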

How the results depend on the processing

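For genes called in the main fit, 1347 values were obtained under the alternatives. Of these, 1144 kept their direction and stayed called, 202 kept only the direction and 1 reversed. The reversal was Gapdh in isoflurane over propofol control, which went to -0.001 with library totals alone. Genes that passed the test only under an alternative are not among these values. With library totals alone that control comparison had 4 genes higher and 20 lower, with a median log2 value of -0.257 instead of -0.111, and the septic comparison had 8 lower. At an adjusted p below 0.01 the isoflurane sepsis comparison had 8 higher and 7 lower, the control comparison 5 and 6, and the septic comparison and the interaction 0 and 0. In a fit of all 16 libraries the control comparison had 4 higher and 5 lower, and the septic comparison 6 and 10. With DESeq2 the septic comparison had 4 higher and 8 lower, and the interaction 2 lower, as it had with limma-voom, while without a filter on low counts it had 0 lower.

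With each library left out in turn, the isoflurane sepsis comparison ranged over 11 to 16 higher and 8 to 11 lower (median -0.045 to 0.111), propofol sepsis over 9 to 14 and 8 to 11 (-0.152 to -0.056), the control comparison over 6 to 11 and 8 to 13 (-0.186 to -0.074), the septic comparison over 0 to 5 and 2 to 6 (-0.109 to 0.186) and the interaction over 1 to 3 and 0 to 2 (0.011 to 0.173). The cause of these changes was not tested. Under every alternative other than the stricter threshold, 16 of 24 calls held under isoflurane, 15 of 23 under propofol, 9 of 21 in control liver, 2 of 7 in septic liver and 1 of 3 in the interaction. No paired analysis was possible because the groups share no replicate number. Depth limits genes near 1 CPM, such as Hk2 in control liver and Pfkm.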
